A study of Chlamydomonas reinhardtii with 6 samples.

Results

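The 8 genes described here encode enzymes by which the unicellular green alga Chlamydomonas reinhardtii turns acetate into cell carbon: isocitrate lyase (ICL1), malate synthase (MAS1), a pair of citrate synthases (CIS2 and CIS1), malate dehydrogenase (MDH2), acetyl-CoA synthetase (ACS3), aconitase (ACH1) and phosphoenolpyruvate carboxykinase (PCK1). They were taken by identifier from a deposited table of 17741 gene models, and all 8 were found. The gene names came with the list of identifiers. Neither the deposited table nor the reference table of locus tags pairs an identifier with a symbol, so each role below is background on the enzyme of that name.

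Poly-A RNA was sequenced from 6 cultures of strain CC-4532. In 3 of them the medium held 6 µM manganese, the control level, and in the other 3 it held 1000 µM. All 6 flasks were seeded from a shared starter culture into Tris-acetate-phosphate medium of 1 L, so acetate was supplied in both groups. They were shaken at 180 rpm at 24 °C in continuous light of about 50 µmol photons per square metre and second, and were collected in mid-logarithmic growth at 3000000 cells per mL. Each replicate is its own flask, but strain and inoculum were shared, and the spread behind a p-value is that among such flasks.

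Acetate enters metabolism as acetyl-CoA. The glyoxylate cycle then builds malate and succinate from acetyl-CoA while bypassing the steps of the tricarboxylic acid cycle that release carbon dioxide, so that a cell can build sugars from acetate. In Chlamydomonas most enzymes of the cycle are housed in peroxisomal microbodies, and isocitrate lyase acts in the cytosol. Isocitrate lyase, malate synthase and phosphoenolpyruvate carboxykinase all need a divalent metal ion, magnesium or manganese.

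The deposited values are FPKM, a measure in which fragment counts are divided by transcript length and library size, and so can be compared between genes. They are relative to the rest of each library, so a change in total RNA per cell would not be seen. The summed FPKM of a library ranged from 629620 to 767912. Absolute depth is not kept in such values. From the steps between low values, the reads behind 1 FPKM were estimated at 0.713 to 1.12 relative to 6 µM replicate 1. Each estimate is rough, as it rests on the most common ratio, held by 13.7% to 16.4% of the low genes compared. Across the 12543 genes that averaged 1 FPKM or more, 6 µM replicate 1 and 1000 µM replicate 3 deviated from their groups together (r = 0.75 between their deviations, across genes, which are not independent replicates). Results for the 8 genes are therefore given with and without this pair of libraries where they differ. The pair was picked from these same data, and deviations within a group cancel, so some pair across the groups is bound to correlate. The groups rest on the labels alone.

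None of the 8 genes was absent or under 1 FPKM in any library, and the lowest value was 37.3 FPKM. ICL1, which splits isocitrate into succinate and glyoxylate, was the most abundant, and CIS1, the mitochondrial citrate synthase, was the least. None of the 8 passed an adjusted p of 0.05 in the comparison of manganese levels (limma on log2(FPKM + 1), two-sided, Benjamini-Hochberg over 12543 genes), where the share of all tested genes that passed was 0%. None passed an unadjusted p of 0.05 either, which 2.82% of tested genes did. For each of the 8 the range of the 1000 µM libraries overlapped that of the 6 µM libraries, and groups that did not overlap were seen in 8.04% of tested genes.

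**Figure D1:**
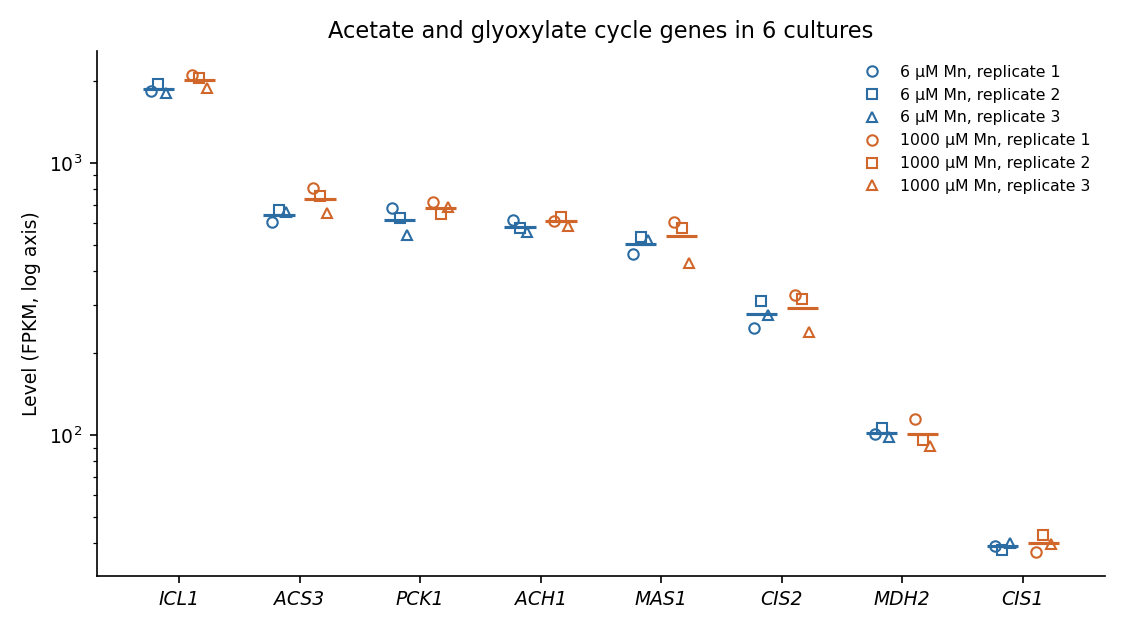
Level in FPKM (log axis) of the 8 genes in each library, ordered by mean level. Blue symbols are the 3 cultures at 6 µM manganese and orange symbols the 3 at 1000 µM, the symbol shape gives the replicate, and bars are group means. ICL1 lies near 1942 FPKM and CIS1 near 39.6 FPKM over the 6 libraries, and within each gene the colours overlap.

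The gene of the cytosolic enzyme of the cycle was the most strongly expressed of the group. ICL1 (Cre06.g282800.v5.5, chromosome 6 from 5284370 to 5288359) was at 1837, 1958 and 1806 FPKM in 6 µM replicates 1, 2 and 3, and at 2114, 2050 and 1885 FPKM in 1000 µM replicates 1, 2 and 3. Each of the 3 libraries at 1000 µM lay above the 6 µM mean, but replicate 3 at 1000 µM lay below replicate 2 at 6 µM. The group means were 1867 ± 80.4 FPKM and 2016 ± 118 FPKM (SD, n = 3 each). The difference of log2(FPKM + 1), 1000 µM minus 6 µM, was 0.11 (SE 0.11), and its 95% interval ran from -0.14 to 0.36 (limma adjusted p = 1.00). Expressed as a ratio that is 1.08-fold, with an interval from 0.909 to 1.28. ICL1 ranked 93 of the 12543 tested genes by mean level, and between 81 and 99 within single libraries.

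MAS1 condenses the glyoxylate from that reaction with acetyl-CoA to give malate. MAS1 (Cre03.g144807.v5.5, chromosome 3 from 356536 to 361981) was at 464, 533 and 519 FPKM at 6 µM, and at 607, 575 and 431 FPKM at 1000 µM, in order of replicate number. The highest pair of values and the lowest value all came from 1000 µM cultures, with the 6 µM libraries between them. The means were 505 ± 36.8 and 538 ± 94 FPKM (SD, n = 3 each), and the log2 difference was 0.08 with an interval from -0.27 to 0.42 (limma adjusted p = 1.00). Its coefficient of variation was 7.29% at 6 µM and 17.5% at 1000 µM, the largest at 1000 µM among the 8 genes.

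CIS2, a citrate synthase assigned to the microbodies, joins oxaloacetate and acetyl-CoA at the start of the cycle. It lies on the same chromosome as MAS1, 767598 bases further on (Cre03.g149100.v5.5, chromosome 3 from 1129580 to 1134612). Its levels were 248, 311 and 276 FPKM at 6 µM and 327, 317 and 238 FPKM at 1000 µM. As for MAS1, the lowest library of the 6 µM group was replicate 1 and the lowest of the 1000 µM group was replicate 3. The means were 278 ± 31.7 and 294 ± 48.7 FPKM (SD, n = 3 each), with a log2 difference of 0.07 and an interval from -0.28 to 0.43 (limma adjusted p = 1.00).

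MDH2, a malate dehydrogenase that returns malate to oxaloacetate, was the only one of the 8 with a lower mean at 1000 µM in the values as deposited. MDH2 (Cre10.g423250.v5.5, chromosome 10 from 798235 to 802160) was at 101, 106 and 98.8 FPKM at 6 µM and at 115, 95.8 and 91.1 FPKM at 1000 µM. Replicate 1 at 1000 µM was the highest of the 6 libraries, while the remaining 1000 µM libraries were the lowest. The means were 102 ± 3.72 and 101 ± 12.6 FPKM (SD, n = 3 each), and the log2 difference was -0.02 with an interval from -0.30 to 0.25 (limma adjusted p = 1.00). Its direction was not stable, since leaving out 6 µM replicate 2 gave a log2 difference of 0.0037, and leaving out replicate 2 or 3 of the 1000 µM group gave 0.0063 or 0.04.

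ACS3, an acetyl-CoA synthetase that activates acetate with ATP, had the largest log2 difference of the group. ACS3 (Cre07.g353450.v5.5, chromosome 7 from 5822819 to 5829894) was at 605, 673 and 660 FPKM at 6 µM and at 810, 758 and 653 FPKM at 1000 µM. Replicates 1 and 2 at 1000 µM lay above each 6 µM library, and replicate 3 at 1000 µM lay inside the 6 µM range. The means were 646 ± 35.9 and 740 ± 79.9 FPKM (SD, n = 3 each), and the log2 difference was 0.19 (SE 0.12) with an interval from -0.09 to 0.47 (limma unadjusted p = 0.153, adjusted p = 1.00). As a ratio this is 1.14-fold, with an interval from 0.941 to 1.38. A larger positive difference was seen in 6.06% of tested genes. The size of the difference depended on single libraries. Omitting replicate 1 gave 0.12 when it was the 1000 µM culture and 0.14 when it was the 6 µM culture. Omitting 1000 µM replicate 3 gave 0.28 (limma unadjusted p = 0.0424, which 3.66% of tested genes passed in that setting, adjusted p = 0.999). Without both 6 µM replicate 1 and 1000 µM replicate 3 it was 0.23 (limma unadjusted p = 0.0492, where 5.08% of tested genes passed, adjusted p = 0.928). That pair was picked from these same data.

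PCK1 converts oxaloacetate to phosphoenolpyruvate, the step by which carbon from the cycle enters gluconeogenesis. PCK1 (Cre02.g141400.v5.5, chromosome 2 from 7897189 to 7902738) was at 683, 630 and 542 FPKM at 6 µM and at 718, 651 and 689 FPKM at 1000 µM. The 3 libraries at 1000 µM lay above the 6 µM mean, and 6 µM replicate 1 lay inside their range. The means were 618 ± 71 and 686 ± 33.6 FPKM (SD, n = 3 each), and the log2 difference was 0.15 with an interval from -0.13 to 0.44 (limma adjusted p = 1.00). Here the wider spread was at 6 µM, with a coefficient of variation of 11.5% against 4.90% at 1000 µM. Without 6 µM replicate 3 the log2 difference was 0.06, and without 6 µM replicate 1 it was 0.23.

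Aconitase interconverts citrate and isocitrate and is a step of both the glyoxylate and the tricarboxylic acid cycles. ACH1 (Cre01.g042750.v5.5, chromosome 1 from 6031056 to 6036984) was at 618, 578 and 557 FPKM at 6 µM and at 615, 631 and 585 FPKM at 1000 µM. Its means of 584 ± 31.5 and 611 ± 23.2 FPKM (SD, n = 3 each) gave a log2 difference of 0.06 with an interval from -0.18 to 0.30 (limma adjusted p = 1.00). That difference dropped to 0.029 when 6 µM replicate 3 was omitted and to 0.039 when 1000 µM replicate 2 was, and omitting 6 µM replicate 1 gave 0.11. ACH1 varied little in either group, by 5.38% and 3.80% as coefficients of variation, and 6 µM replicate 1 lay above 1000 µM replicates 1 and 3.

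The mitochondrial citrate synthase was the steadiest of the 8 at 6 µM. CIS1 (Cre12.g514750.v5.5, chromosome 12 from 3717332 to 3723387) was at 39.1, 37.9 and 40.2 FPKM at 6 µM and at 37.3, 43.0 and 39.8 FPKM at 1000 µM. The lowest and the highest of these libraries both came from 1000 µM cultures. The means were 39.1 ± 1.16 and 40.0 ± 2.89 FPKM (SD, n = 3 each), and the log2 difference was 0.03 with an interval from -0.20 to 0.26 (limma adjusted p = 1.00). No annotated gene of the Chlamydomonas_reinhardtii_v5.5 reference table overlaps the span of CIS1 or of the other 7.

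With 3 cultures per group, the intervals limit how large a change could have been. For 8 of 8 genes the 95% interval, not adjusted for the number of genes, stayed within 1.5-fold up or down in FPKM, as it did for 81.4% of all tested genes and for 85.2% of the 677 tested genes that averaged 100 FPKM or more. The half-width of the interval ran from 0.23 for CIS1 to 0.35 for CIS2 on the log2 scale. Changes smaller than that could not be told from no change at this replication, and a p above the threshold does not show equal levels.

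**Figure D2:**
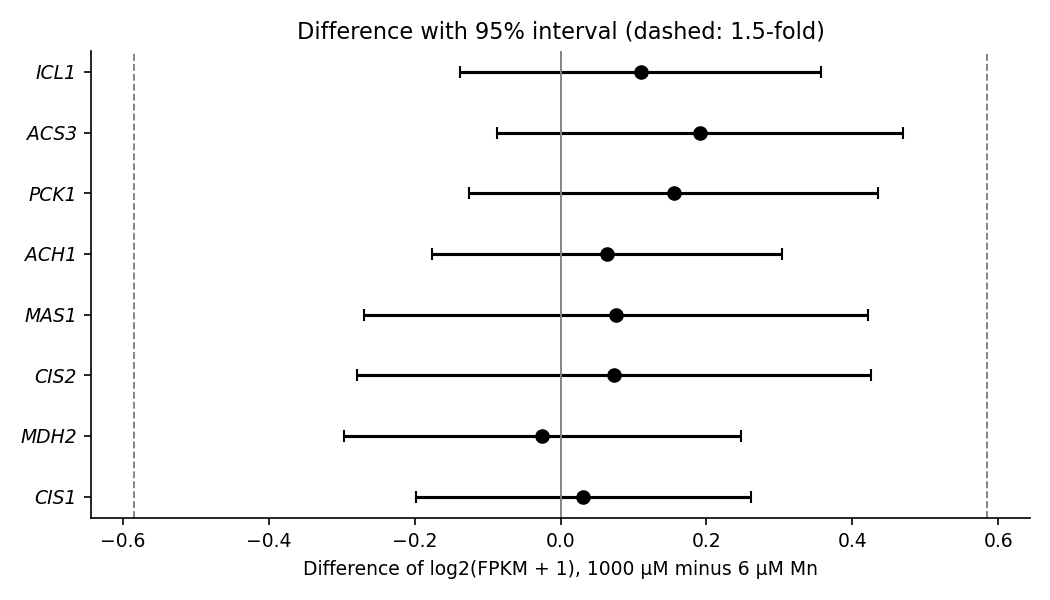
Difference of log2(FPKM + 1) between 1000 µM and 6 µM manganese for each of the 8 genes (points) with its 95% interval from limma's moderated standard error (bars), n = 3 cultures per group. The solid line marks no difference and dashed lines mark a 1.5-fold change. Each interval includes 0 and stays inside the dashed lines.

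The means of 7 of the 8 genes were higher at 1000 µM in the values as deposited, and 7 of 8 also after median-of-ratios scaling. Once libraries were scaled to an equal FPKM total 3 of 8 were higher, and after quantile normalization 2 of 8. As deposited, a positive difference was seen in 53.7% of all tested genes and in 81.2% of those averaging 100 FPKM or more. That abundant class holds 7 of the 8. The median log2 difference of the 8 as deposited was 0.07, against 0.01 over all tested genes and 0.09 over the abundant class. With equal FPKM totals the median of the 8 was -0.01, against -0.06 over all tested genes. It was 0.07 against 0.01 after median-of-ratios scaling, and -0.02 against 0.01 after quantile normalization. The summed level of the 8 was 4640 ± 169 FPKM in the control cultures and 5025 ± 374 FPKM with 1000 µM manganese (SD, n = 3 each). As a share of all summed FPKM that was 0.687% ± 0.0378 and 0.699% ± 0.0544 (SD, n = 3 each). The total over all genes was itself higher on average at 1000 µM, with 677146 ± 45090 FPKM in the control group against 719590 ± 42235 (SD, n = 3 each), and its part in the positive differences was not tested beyond the scalings above.

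**Figure D3:**
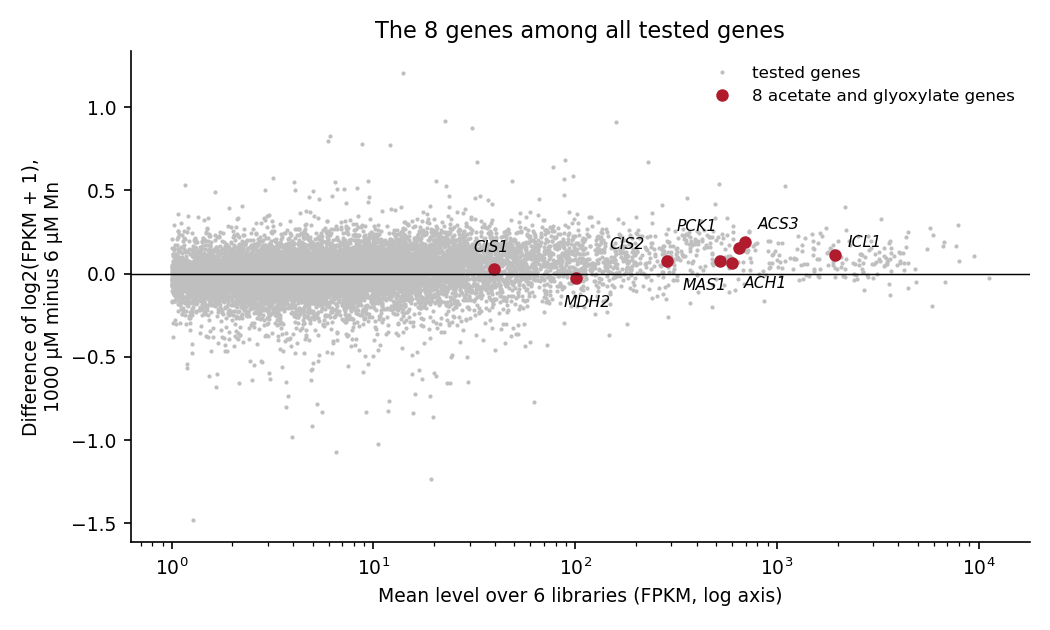
Difference of log2(FPKM + 1), 1000 µM minus 6 µM manganese, against mean level over the 6 libraries (FPKM, log axis) for the 12543 tested genes (grey) and the 8 acetate and glyoxylate genes (red). The 8 lie between -0.02 and 0.19 in values as deposited, within the grey cloud at their level. With the same FPKM total per library, 3 of the 8 were above 0 instead of 7. The median of all tested genes was then -0.06.

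The order of levels was the same in both groups, from ICL1 through ACS3, PCK1, ACH1, MAS1, CIS2 and MDH2 to CIS1, and group medians gave the same order for 8 of 8. ICL1 stood apart, at 2.89 times the mean of ACS3 at 6 µM and 2.72 times at 1000 µM, with no overlap of their ranges. The next genes lay close together. The ranges of ACS3 and PCK1 overlapped in both groups, those of PCK1 and ACH1 overlapped at 6 µM, and those of ACH1 and MAS1 overlapped at 1000 µM. MAS1, CIS2, MDH2 and CIS1 followed each other with no overlap between neighbours in either group.

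Ratios within a library do not depend on a factor common to its genes. The ratio of MAS1 to ICL1, the enzymes particular to the glyoxylate cycle, was 0.252, 0.272 and 0.287 at 6 µM and 0.287, 0.280 and 0.228 at 1000 µM. The ratio of the microbody citrate synthase CIS2 to the mitochondrial CIS1 was 6.33, 8.21 and 6.85 at 6 µM and 8.79, 7.38 and 5.99 at 1000 µM. Both ratios overlapped between the groups, with means of 0.271 ± 0.0176 and 0.265 ± 0.0321 for the former and 7.13 ± 0.967 and 7.39 ± 1.40 for the latter (SD, n = 3 each). For both, the lowest library was 1000 µM replicate 3 and the next lowest was 6 µM replicate 1. The ratio of MDH2 to ICL1 was steady at 6 µM, with 0.0549, 0.0541 and 0.0547, and was 0.0544, 0.0467 and 0.0483 at 1000 µM. Its groups overlapped only through replicate 1 at 1000 µM. The ratio of ACH1 to CIS1 was 15.0 ± 1.02 at 6 µM and 15.3 ± 1.05 at 1000 µM (SD, n = 3 each), and these groups overlapped too.

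The largest movements among the 8 genes were those of MAS1 and CIS2, between cultures of the same manganese level. In 1000 µM replicate 3, MAS1 lay 0.30 and CIS2 0.29 below their group means on the log2(FPKM + 1) scale, larger than the difference between the groups for any of the 8. ACS3 deviated by -0.18 and MDH2 by -0.13 in that library. It was the lowest 1000 µM library for 6 of the 8 genes, where it was the lowest for 39.2% of tested genes. The share within the abundant class, which holds most of the 8, was not computed. Its summed FPKM was also the lowest of the 1000 µM group, at 689724. In 6 µM replicate 1 the genes split: MAS1, CIS2 and ACS3 deviated by -0.12, -0.16 and -0.09, while PCK1 and ACH1 deviated by 0.15 and 0.08. CIS1 deviated by at most 0.10 in size, in 1000 µM replicate 2. For ICL1 and ACS3 the largest deviations, -0.095 and -0.175, were smaller in size than their group differences of 0.110 and 0.191. For the other genes of the list the largest deviation exceeded the gene's own difference. The deviation of a single library and a difference of group means are unlike measures.

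**Figure D4:**
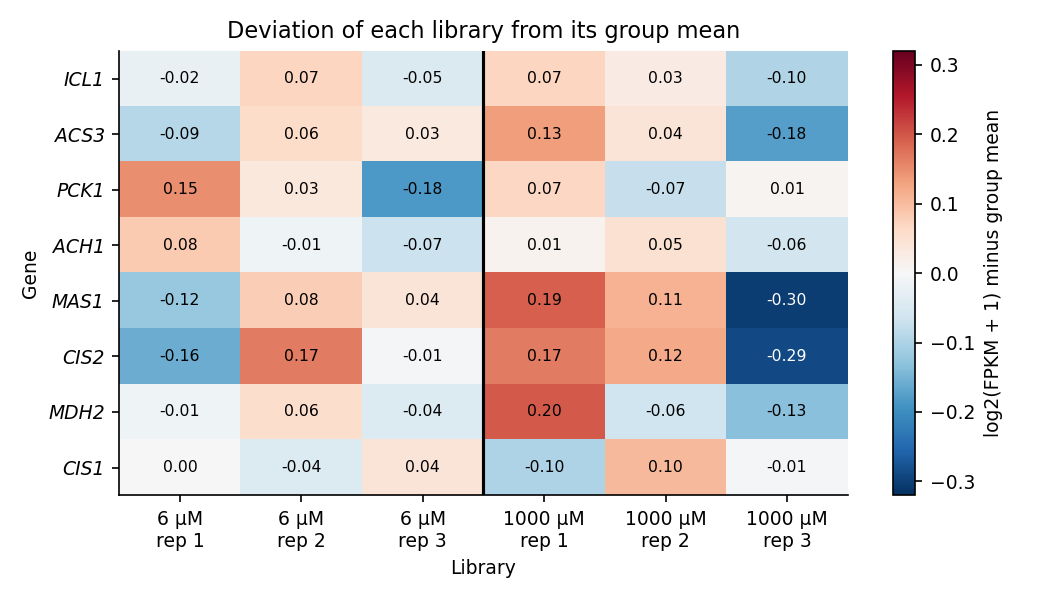
Deviation of each library from the mean of its group on the log2(FPKM + 1) scale, for the 8 genes (rows) in the 6 libraries (columns), with 6 µM left of the line and 1000 µM right of it. Red is above and blue is below the group mean. The deepest blue cells are MAS1 at -0.30 and CIS2 at -0.29 in 1000 µM replicate 3, and both are also blue in 6 µM replicate 1.

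These libraries are the pair that deviated together across all genes, so the comparison was also read without them. That choice came from these same data, so the reading is no independent support for a difference. Among the other 4 libraries both 1000 µM values lay above both 6 µM values for ICL1, MAS1, CIS2, ACS3, ACH1 and PCK1, which is 6 of 8 genes. The same held for 18.4% of tested genes and for 37.1% of those averaging 100 FPKM or more. The libraries left out include the lowest 1000 µM library of ICL1, MAS1, CIS2, MDH2, ACS3 and ACH1, which raises their 1000 µM means by construction. PCK1 is not among these genes. For PCK1 and ACH1 the 6 µM library left out was the highest control, at 683 and 618 FPKM, which lowers their 6 µM means. For MAS1, CIS2 and ACS3 it was the lowest control, which raises their 6 µM means. A reading with libraries scaled to an equal FPKM total was added after the data were seen. There both 1000 µM values lay above both 6 µM values for ACS3 and ACH1, 2 of 8 genes, and for 6.51% of tested genes. The share within the abundant class was not computed for this reading. As deposited, the log2 differences of the 6 then ran from 0.14 for ACH1 to 0.23 for ACS3, against 0.04 for MDH2 and 0.03 for CIS1. Inside the pair, 1000 µM replicate 3 minus 6 µM replicate 1, the difference was -0.11 for MAS1, -0.06 for CIS2, -0.15 for MDH2 and -0.08 for ACH1. It was 0.04 for ICL1, 0.11 for ACS3, 0.02 for CIS1 and 0.01 for PCK1. None of the 8 passed an adjusted p of 0.05 without the pair in the same limma test, and the smallest adjusted p was 0.928. What set these libraries apart was not tested.

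**Figure D5:**
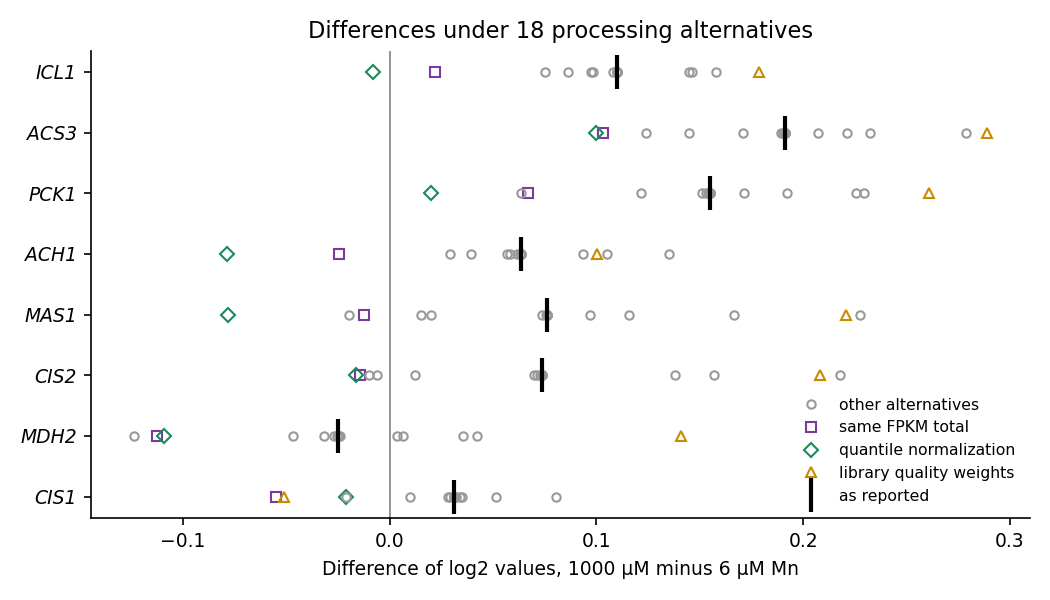
Difference of log2 values, 1000 µM minus 6 µM manganese, for the 8 genes as reported (black bars) and under 18 processing alternatives (symbols). ACS3 and PCK1 stay above 0 throughout, from 0.10 and 0.02 upward, whereas scaling to the same FPKM total (squares) and quantile normalization (diamonds) move ACH1, MAS1, CIS2 and CIS1 below 0, and quantile normalization also moves ICL1.

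The 3 genes whose levels followed ICL1 most closely over the 6 libraries, among 7148 others averaging 5 FPKM or more, were Cre04.g230340.v5.5, Cre02.g142186.v5.5 and Cre03.g213537.v5.5. Likeness was measured as the root mean square difference between log2(FPKM + 1) values centred on each gene's mean, and it was 0.01, 0.02 and 0.03 for them. The median over the genes compared was 0.16, and ICL1 itself varied by 0.08 about its own mean. A gene that did not vary at all would therefore score 0.08. Cre03.g213537.v5.5, with a mean of 979 FPKM, was the only abundant one of the 3, and the others averaged 5.93 and 7.96 FPKM. Such small differences can arise by selecting the closest of 7148 genes over 6 libraries, and co-expression was not tested. Of the other 7 acetate genes, ACH1 came at place 218 and ACS3 at place 304, followed by MDH2 at 892, CIS1 at 1522, PCK1 at 1542, MAS1 at 1937 and CIS2 at 2034. MDH2 (0.09), CIS1 (0.11), PCK1 (0.11), MAS1 (0.12) and CIS2 (0.12) scored worse than a flat gene would. Their places also reflect the size of their own movements, and do not rank how far they moved with ICL1.

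A further 19 identifiers were read from the same fit. They were listed from general knowledge as candidate loci of acetate activation, other malate dehydrogenases and the tricarboxylic acid cycle. None of the tables used here annotates them, so their place in these pathways was not checked, they are given by identifier only, and the counts describe the listed identifiers. All 19 averaged 1 FPKM or more, from 3.28 to 307 FPKM, and 0 of 19 passed the limma adjusted threshold or an unadjusted p of 0.05, where 1.08% of tested genes passed the latter with a higher and 1.75% with a lower mean at 1000 µM. Their log2 differences were positive for 9 and negative for 10, with a median of -0.01. Groups did not overlap for 2 of 19, beside 8.04% of tested genes. The smallest p among those with a higher mean belonged to Cre09.g410700.v5.5, at 95.3, 108 and 102 FPKM at 6 µM and 111, 122 and 111 FPKM at 1000 µM. Its log2 difference was 0.17 with an interval from -0.07 to 0.41 (limma unadjusted p = 0.142, adjusted p = 1.00). Among those with a lower mean it was Cre01.g020223.v5.5, at 3.24, 3.48 and 4.45 FPKM at 6 µM and 3.20, 3.30 and 2.37 FPKM at 1000 µM. Its log2 difference was -0.26 with an interval from -0.56 to 0.05 (limma unadjusted p = 0.0885, adjusted p = 1.00).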

How the data were processed

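Expression was read from a single table in which the authors deposited FPKM for each gene model and library. The submitters' processing notes name CASAVA, STAR and Cuffdiff 2.2.1. Not given in the sources used here are the settings, alignment build and normalization option, or the handling of strand or of reads shared between gene copies. Columns were assigned by the manganese level and replicate number in the sample titles, and 0 per-sample columns were left unused. Of 17741 identifiers, 17738 matched a locus tag of the RefSeq table for assembly Chlamydomonas_reinhardtii_v5.5, whose 1-based coordinates are printed.

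Values were transformed to log2(FPKM + 1), which understates changes of low genes. Genes averaging 1 FPKM or more entered a two-sided moderated test (limma 3.58.1, R 4.3.3, trended eBayes), and p-values were adjusted by Benjamini-Hochberg over 12543 genes. The procedure was also run on simulated data with noise drawn independently for each gene and library. Deviations shared across genes, as seen in these libraries, were not simulated, so that run does not show how the test behaves under them. Intervals are at the 95% level. No counting interval or floor can be had, since FPKM keep no depth. The 8 genes and the lists were chosen with earlier results of these data known. The rule for naming genes took the 8, the 3 most like ICL1 and the smallest p in each direction of the 19 further identifiers. There were 18 alternatives, covering pseudocount, filter, scaling, replicate block, variance model, library weights and omitted libraries. Plots were made in Python 3.11.15 with matplotlib 3.10.9.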

Additional observations from a re-analysis of the deposited data

How the results depend on the processing

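The count of 0 of the 8 genes past the limma adjusted threshold held under all 18 alternatives. Over all genes, the count of 0 became 2 with the same FPKM total per library, 26 with library quality weights and 3 without both 6 µM replicate 1 and 1000 µM replicate 3, and it ranged from 0 to 2 when single libraries were left out. Those weights ran from 0.267 for 1000 µM replicate 3 to 6.58 for 1000 µM replicate 1, and with them MAS1, ACS3 and PCK1 had an unadjusted p under 0.05, as did 10.1% of tested genes (smallest adjusted p among the 8, 0.323). ACS3 and PCK1 kept a positive log2 difference under the 18 alternatives (0.10 to 0.29 and 0.02 to 0.26). Signs turned for the other 6. With the same FPKM total the median over all tested genes was -0.061. The log2 difference was then -0.012 for MAS1, -0.014 for CIS2, -0.024 for ACH1 and -0.055 for CIS1. After quantile normalization it was -0.0083 for ICL1, -0.078 for MAS1, -0.016 for CIS2, -0.079 for ACH1 and -0.021 for CIS1. With quality weights it was 0.14 for MDH2 and -0.051 for CIS1, and without both libraries it was 0.036 for MDH2. Leaving out single libraries gave 0.075 (without 1000 µM replicate 1) to 0.16 (without 1000 µM replicate 3) for ICL1 and -0.020 to 0.23 for MAS1 (negative without 1000 µM replicate 1), -0.0098 to 0.22 for CIS2 (negative without 6 µM replicate 1 or 1000 µM replicate 1), -0.12 to 0.042 for MDH2 (positive without 6 µM replicate 2, 1000 µM replicate 2 or 1000 µM replicate 3) and -0.021 to 0.080 for CIS1 (negative without 1000 µM replicate 2). The cause was not tested. Same-numbered libraries deviated from their group means with correlations of -0.40, 0.51 and -0.50 across genes. Because deviations within a group cancel, such values cannot decide whether cultures were paired by number. With a replicate block 0 genes passed, 306 had an unadjusted p under 0.05 against 354, and ICL1 kept its log2 difference of 0.11 (SE 0.13).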
